A study of Mus musculus with 12 samples.

Results

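The 10 genes described here belong to the circadian clock: the paired repressors Bhlhe40 and Bhlhe41, the period genes Per1, Per2 and Per3, the cryptochromes Cry1 and Cry2, the activator Clock, the nuclear receptor Nr1d1 and the output factor Dbp. They were chosen by name, with earlier results of these data known, from the 56350 genes of the deposited count table. Each symbol matched 1 row. All 10 passed the filter on low counts (more than 10 counts in at least 3 libraries), with between 718 and 27683 counts in any library. The counts came from 12 mRNA sequencing libraries, 3 from each of 4 conditions. All were made from MPC2, a conditionally immortalized murine mesenchymal line that is 1 clone, so that the libraries share 1 genetic background. MSCs were undifferentiated MPC2 cells grown at 33 °C, and osteocytes were MPC2 cells kept for 3 weeks at 37 °C with beta-glycerophosphate and ascorbic acid. Each cell type received vehicle (DMSO) or 50 µmol/L of FG-4592 (Roxadustat), an inhibitor of the HIF prolyl hydroxylases, for 48 hours. Temperature and media changed together with differentiation, and their effects on the clock genes cannot be told apart in the comparisons between cell types.

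The clock of mammalian cells is a loop of transcription in which CLOCK and its partner BMAL1 (encoded by Arntl) bind E-box sequences and drive the Per and Cry genes, whose proteins then block CLOCK and BMAL1. A second loop runs through the nuclear receptor REV-ERBα (encoded by Nr1d1), which represses Arntl, and D-box factors such as DBP carry the rhythm to output genes. BHLHE40 and BHLHE41 repress at the same E-boxes and are also known targets of the hypoxia-inducible factors (HIF), which like CLOCK are bHLH-PAS proteins. Bone cells have such clocks, and in culture the rhythms of single cells drift apart unless they are reset together. Fresh serum is known to reset them. The stated medium held serum and was renewed every few days during differentiation, and the hours of the last renewal and of harvest are not given in the sources used here. Each library is a single time point, so a change in the mean level of a clock gene and a shift in its phase cannot be told apart.

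Because the E-box and the HIF core are the letters on which both systems rest, the promoters of the members were read for them. RefSeq windows on GRCm38.p6, from 250 bases before to 50 bases after a start site, were found for 8 of the 10 members, in 11 windows. Windows of Bhlhe40 and Per2 were not analysed here. The E-box was searched as CACGTG and the HIF core as ACGTG or GCGTG, on both strands. CACGTG holds ACGTG on each strand, so that every E-box also counts as a HIF core. The E-box stood in 1 window each of Bhlhe41, Per1 and Cry1, 3 of the 11 windows, and in 7.15% of all 32851 promoter windows. ACGTG stood in 6 of the 11 member windows, of 6 of the 8 members, and in 19.6% of all windows. GCGTG stood in 9 of the 11, covering all 8 members, and in 32.4% of all windows. The 3 member windows with an E-box are printed because they hold it, and that of Ciart, another clock repressor, because it held 3 E-boxes, a number that 29 of all windows (0.0883%) reached. Each is printed 5′ to 3′ on the gene's strand, with every match to the E-box or to either HIF core, on either strand, in capitals.
Bhlhe41 (chr6:145865371-145865670, minus strand): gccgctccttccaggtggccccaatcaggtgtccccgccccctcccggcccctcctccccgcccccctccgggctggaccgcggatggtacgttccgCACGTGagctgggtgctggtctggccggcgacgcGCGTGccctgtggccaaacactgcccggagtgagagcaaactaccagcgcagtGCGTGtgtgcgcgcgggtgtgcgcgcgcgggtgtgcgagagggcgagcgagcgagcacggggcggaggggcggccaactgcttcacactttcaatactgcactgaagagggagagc
Per1 (chr11:69098699-69098998, plus strand): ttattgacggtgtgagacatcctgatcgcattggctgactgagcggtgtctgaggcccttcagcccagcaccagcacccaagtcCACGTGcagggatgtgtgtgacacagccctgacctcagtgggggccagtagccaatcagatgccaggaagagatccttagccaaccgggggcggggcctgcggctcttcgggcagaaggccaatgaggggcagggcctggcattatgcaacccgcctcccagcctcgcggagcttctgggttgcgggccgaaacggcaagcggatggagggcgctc
Cry1 (chr10:85185005-85185304, minus strand): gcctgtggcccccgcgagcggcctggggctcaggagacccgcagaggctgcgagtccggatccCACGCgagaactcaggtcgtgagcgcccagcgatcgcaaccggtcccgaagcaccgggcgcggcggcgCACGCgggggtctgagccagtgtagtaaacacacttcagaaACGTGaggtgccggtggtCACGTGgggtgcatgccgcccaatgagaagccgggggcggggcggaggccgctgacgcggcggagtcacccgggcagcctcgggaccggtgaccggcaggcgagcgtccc
Ciart (chr3:95882179-95882478, minus strand): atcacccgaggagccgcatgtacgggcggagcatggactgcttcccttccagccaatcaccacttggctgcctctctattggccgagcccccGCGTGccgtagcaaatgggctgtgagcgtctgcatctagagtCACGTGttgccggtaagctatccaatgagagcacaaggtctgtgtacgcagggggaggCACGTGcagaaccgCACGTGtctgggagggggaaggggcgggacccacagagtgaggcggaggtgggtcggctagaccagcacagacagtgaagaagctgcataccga
The E-box began at position -153 from the start site in Bhlhe41, -166 in Per1 and -60 in Cry1, and at -116, -58 and -44 in Ciart. A match describes letters in these windows and not a bound site, and the windows leave out introns and distal regions.

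Library totals ranged from 52829185 to 68108470 counts, and values are given as CPM, each count divided by the library size in megacounts after scaling by TMM factors (0.9474 to 1.057). Changes are log2 fold changes from edgeR's quasi-likelihood fit, and FDR is the Benjamini-Hochberg value over the 16484 genes tested. Each SE was derived as the size of the log2 change divided by the square root of its F statistic, and the intervals were built from it. A gene rose or fell where its FDR was under 0.05, and was called where its log2 change also exceeded 1 in size. Nothing in the sources used here says that the 3 libraries of a condition came from separate cultures, so p-values measure the spread between these libraries. Vehicle osteocyte library 1 stood apart: its counts gave a chi-square per degree of freedom of 33.1 and 37.3 against libraries 2 and 3, whereas all other pairs within a condition gave 9.85 to 23.9. Without it, 7 members still passed and 4 were called in the osteocyte response, and values without it are given where a pass, a call or a sign changed. The 8 HIF targets listed as a check summed to 418 to 436 CPM in MSCs with vehicle and 4894 to 5002 with FG-4592. Of the 8, 6 rose there, against 17.6% of all genes, and Egln3 and Car9 did not pass, at no more than 0.0156 and 0.104 CPM. In osteocytes the sums were 328 to 352 and 3864 to 3951, and all 8 rose, against 21.9%. Pgk1 alone averaged 261 and 3203 CPM in MSCs with vehicle and FG-4592, and 147 and 1907 in osteocytes. Of 8 osteocyte markers, Sost was at 0 in every library, Mepe in every osteocyte library, and Pdpn had at most 1 count in any library. The other 5 passed the count filter. Between vehicle osteocytes and vehicle MSCs, 3 of these 5 were higher in osteocytes (Dmp1, Phex and Bglap, by 3.23, 5.88 and 4.28 on the log2 scale, FDR = 1.46e-06, 6.72e-12 and 1.43e-08), Ibsp was lower (-0.74, FDR = 0.00289) and Fgf23 did not pass (-0.84, FDR = 0.578). The sum of the 8 was 58.6 to 66.2 CPM in vehicle MSCs and 102 to 117 in vehicle osteocytes, and Ibsp alone measured 55.3 to 64.2 CPM in vehicle MSCs. With FG-4592 the sums were 4.03 to 4.53 (MSCs) and 16.3 to 25.2 (osteocytes), where 4 of the 5 tested fell and Fgf23 rose (5.81, FDR = 6.68e-05), from at most 0.0753 CPM to between 1.29 and 1.92. Of the 6 mesenchymal stromal markers, Thy1 was at 0 in all MSC libraries, and the sum was 756 to 766 CPM in vehicle MSCs and 714 to 756 in vehicle osteocytes. With FG-4592 it was 854 to 875 and 924 to 953. Among them Nt5e was higher in vehicle osteocytes than in vehicle MSCs by 5.34 on the log2 scale, and Ly6a was lower (-1.95). With FG-4592 in MSCs, of the 5 tested, Ly6a rose (0.88) and 3 fell (Nt5e -1.02, Pdgfra -0.32 and Eng -0.27). In osteocytes Ly6a (2.52) and Nt5e (0.80) rose and Pdgfra fell (-0.23). The 3 endothelial markers summed to at most 2.64 CPM and the 3 blood markers to at most 2.05.

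The first question was how the clock genes of MSCs and of osteocytes responded to FG-4592. In MSCs, 6 of the 10 members rose, 3 fell and 1 did not pass, and Bhlhe40 and Bhlhe41 were called. Over all genes tested, 17.6% rose, 20.4% fell and 9.29% were called. In osteocytes, 7 members rose, none fell and 3 did not pass, and 4 were called (Bhlhe40, Bhlhe41, Per1 and Cry2), against 21.9% of all genes rising, 22% falling and 10.5% called. The median log2 change of the members was 0.30 in MSCs and 0.71 in osteocytes, and that of all genes tested was -0.05 and 0.00. Bhlhe40, Bhlhe41, Per1 and Cry2 rose in both cell types.

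**Figure D1:**
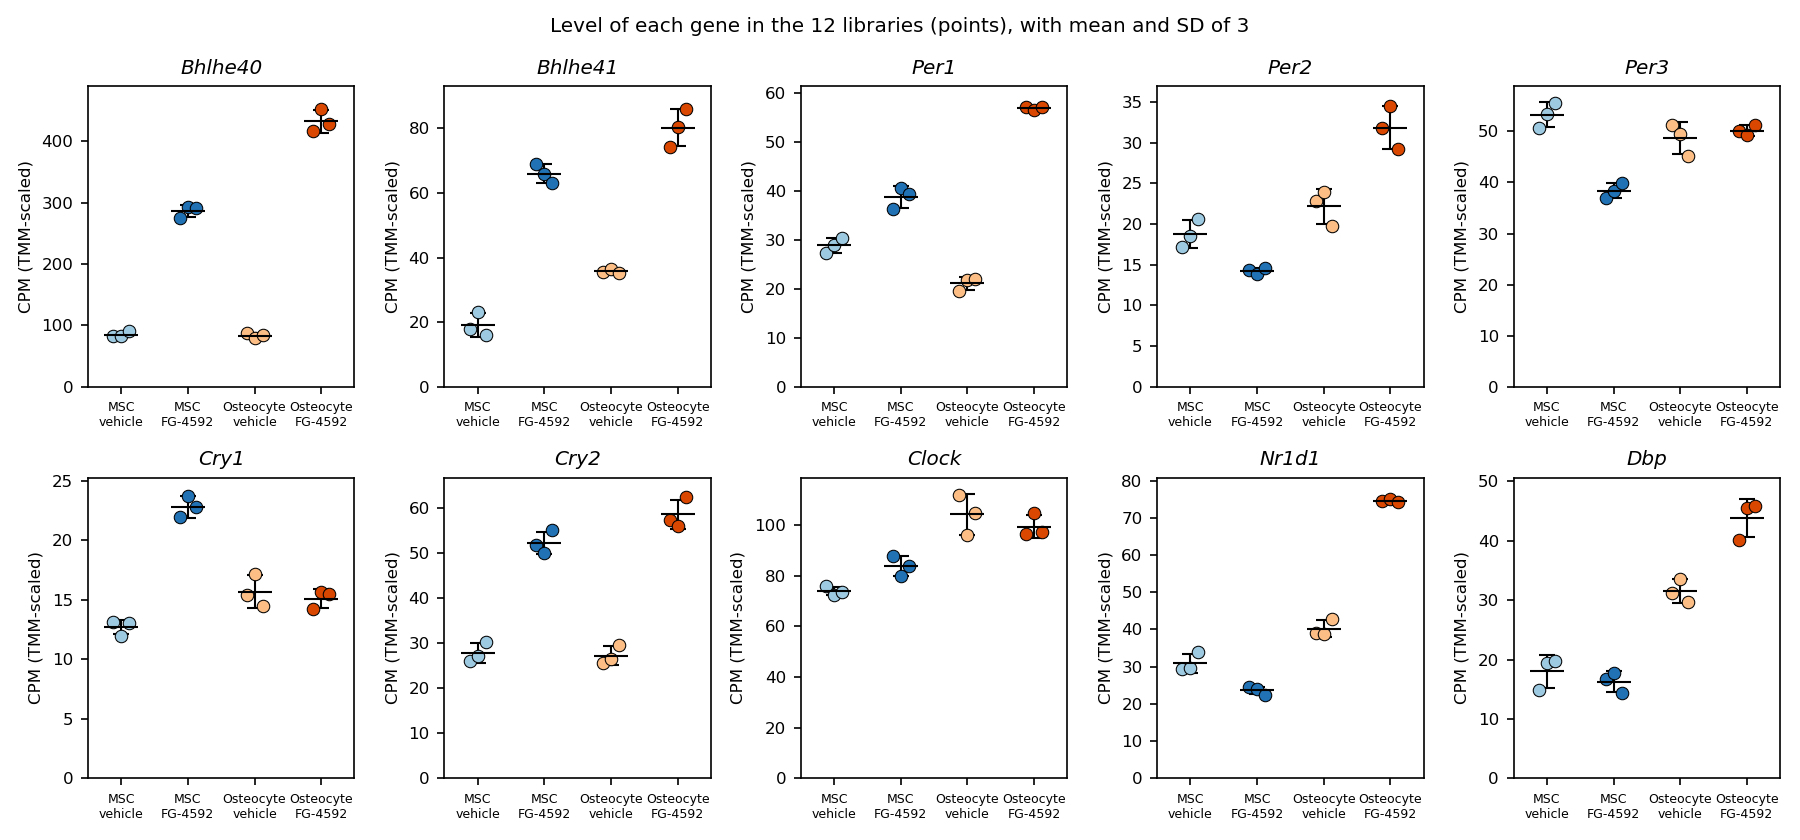
Level of each of the 10 clock genes in CPM (linear axis from 0) in the 12 libraries. Points are libraries, and bars are the mean and SD of 3. Bhlhe40 stood between 78.8 and 90.2 CPM in the 6 vehicle libraries and between 274 and 453 in the 6 FG-4592 libraries, whereas Nr1d1 was lowest in FG-4592-treated MSCs and highest in FG-4592-treated osteocytes.

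Bhlhe40 (chr6:108660629-108666925, plus strand, mm10), which encodes the E-box repressor also called DEC1, was the most abundant member per kilobase of exonic length. It measured 82.0, 83.2 and 90.2 CPM in vehicle MSCs and 274, 292 and 291 with FG-4592. In osteocytes it measured 87.5, 78.8 and 83.8 CPM with vehicle and 417, 453 and 428 with FG-4592. Vehicle libraries of both cell types overlapped, and each set of FG-4592 libraries lay far above them. The log2 change was 1.75 ± 0.056 (SE) in MSCs, 3.36-fold (FDR = 6.27e-13), and 2.37 ± 0.057 in osteocytes, 5.19-fold (FDR = 1.29e-14). The response of osteocytes exceeded that of MSCs by 0.63 on the log2 scale (95% interval 0.46 to 0.79, FDR = 2.29e-05).

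Bhlhe41 (chr6:145858243-145865558, minus strand), encoding the related repressor DEC2, responded most in the other cell type. Vehicle MSCs held 17.9, 23.3 and 16.1 CPM and FG-4592-treated MSCs 68.9, 65.8 and 63.2. Vehicle osteocytes held 35.5, 36.5 and 35.3 CPM and FG-4592-treated osteocytes 74.4, 80.4 and 85.9. The 4 conditions did not overlap, and the vehicle MSCs were the lowest. The log2 change was 1.79 ± 0.101 in MSCs, 3.46-fold (FDR = 6.99e-10), and 1.16 ± 0.098 in osteocytes, 2.24-fold (FDR = 6.74e-08). The osteocyte response was smaller by 0.62 on the log2 scale (difference -0.62, interval -0.92 to -0.33, FDR = 0.00341), so that the difference between cell types had opposite signs for the paired repressors.

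Levels of different genes were compared per kilobase of exonic length (FPKM), since Bhlhe41 has 6720 exonic bases and Bhlhe40 4705. On that scale the ratio of Bhlhe41 to Bhlhe40 was 0.158 ± 0.0357 (SD, n = 3) in MSCs with vehicle and 0.162 ± 0.0125 with FG-4592, and the libraries overlapped. In osteocytes it was 0.301 ± 0.0209 with vehicle and 0.130 ± 0.0093 with FG-4592. No library of one treatment overlapped the other in osteocytes (0.284 to 0.325 against 0.124 to 0.141). Of the bases of Bhlhe41, 1280 (19%) are shared with the antisense gene Gm43909, and 118 of Bhlhe40 (2.51%) with 0610040F04Rik. Gm43909 held at most 0.226 CPM on average in a condition and 0610040F04Rik at most 0.107, so that few reads on the shared bases were counted for these antisense genes, although the stated counting names no strand setting.

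Per1 (chr11:69095217-69109960, plus strand), encoding a period protein that inhibits CLOCK and BMAL1 and known to answer acutely to outside signals, was the period gene with the largest rise. It measured 27.4, 28.8 and 30.4 CPM in vehicle MSCs, and 36.2, 40.7 and 39.3 with FG-4592. Osteocytes held 19.5, 21.8 and 22.0 CPM with vehicle and 57.0, 56.5 and 57.0 with FG-4592. The 4 conditions were separate, and osteocytes were the lower cell type in vehicle and the higher one in FG-4592. Its log2 change was 0.42 ± 0.067 in MSCs (1.34-fold, FDR = 9.29e-05) and 1.43 ± 0.068 in osteocytes (2.69-fold, FDR = 6.06e-11). The difference was 1.01 (interval 0.81 to 1.21, FDR = 1.35e-06), just past the limit of 1 for a call. It fell short of 1 with DESeq2 or RLE factors (0.99 each), upper-quartile factors (0.9997) or library size alone (0.994), and when vehicle MSC library 1 (0.9989), 2 (0.96) or 3 (0.917), FG-4592-treated MSC library 1 (0.962) or vehicle osteocyte library 1 (0.903), 2 (0.987) or 3 (0.989) was left out, with an FDR of at most 1.77e-05.

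Per2 (chr1:91415982-91459324, minus strand), a second period gene, went in opposite directions in the cell types. MSCs fell from 17.2, 18.5 and 20.6 CPM with vehicle to 14.4, 13.9 and 14.6 with FG-4592. Osteocytes rose from 22.9, 23.9 and 19.7 CPM to 31.8, 34.5 and 29.2. Neither pair of conditions overlapped. FG-4592 changed Per2 by -0.40 ± 0.092 on the log2 scale in MSCs (1.32-fold lower, FDR = 0.00269) and 0.52 ± 0.090 in osteocytes (1.44-fold higher, FDR = 0.000176), a difference of 0.92 (interval 0.64 to 1.19, FDR = 7.96e-05).

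Per3 (chr4:151003652-151044665, minus strand), the third period gene, fell in MSCs from 50.7, 53.4 and 55.6 CPM to 36.9, 38.3 and 39.9, with a log2 change of -0.47 ± 0.060 (1.39-fold lower, FDR = 9.6e-06). In osteocytes it measured 51.3, 49.4 and 45.2 CPM with vehicle and 50.0, 49.2 and 51.2 with FG-4592, and these overlapped. The osteocyte log2 change was 0.04 (interval -0.08 to 0.17, FDR = 0.597), with its sign reversed when library size alone scaled the counts (-0.05) or without vehicle osteocyte library 3 (-0.03). The responses differed by 0.52 (interval 0.34 to 0.70, FDR = 0.000315).

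Of the cryptochromes, which repress CLOCK and BMAL1 together with the period proteins, Cry2 responded in both cell types and Cry1 passed in MSCs. Cry1 (chr10:85131700-85185064, minus strand) measured 13.1, 12.0 and 13.0 CPM in vehicle MSCs and 21.9, 23.7 and 22.8 with FG-4592, and rose by 0.84 ± 0.083 on the log2 scale (1.79-fold, FDR = 6.04e-07). Osteocytes held 15.4, 17.2 and 14.4 CPM with vehicle and 14.2, 15.6 and 15.5 with FG-4592, and the libraries overlapped. Their log2 change was -0.05 (interval -0.23 to 0.13, FDR = 0.664), and it was 0.0042 without vehicle osteocyte library 2. The responses of Cry1 differed by -0.89 (interval -1.14 to -0.64, FDR = 4.29e-05), and by -1.0003, past the limit for a call, without vehicle osteocyte library 3.

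Cry2 (chr2:92403646-92434043, minus strand) was the member whose response did not pass the test of a difference between cell types. It rose from 26.2, 27.1 and 30.3 CPM to 51.7, 50.2 and 55.1 in MSCs, and from 25.6, 26.5 and 29.7 to 57.3, 56.2 and 62.4 in osteocytes. Treated and untreated libraries were separate in both. In log2 terms Cry2 rose by 0.91 ± 0.074 in MSCs (1.88-fold, FDR = 6.14e-08; 1.0047 without vehicle MSC library 3, past the limit for a call) and 1.10 ± 0.074 in osteocytes (2.15-fold, FDR = 4.54e-09). Their difference was 0.20 (interval -0.03 to 0.42, FDR = 0.195). Cry2 shares 295 bases (4.67%) with the antisense gene D930015M05Rik, which held at most 0.0163 CPM on average in a condition.

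Clock (chr5:76209868-76304792, minus strand), encoding the activator itself, moved least among the members that passed. MSCs measured 75.9, 72.5 and 73.7 CPM with vehicle and 87.8, 80.0 and 83.7 with FG-4592, a log2 change of 0.18 ± 0.059 (1.13-fold, FDR = 0.0242). It did not pass without FG-4592-treated MSC library 1 (0.15, FDR = 0.103) or library 3 (0.18, FDR = 0.0551), and with library size alone (0.09, FDR = 0.212) or upper-quartile factors (0.15, FDR = 0.0597). Osteocytes measured 112, 96.1 and 105 CPM with vehicle and 96.4, 105 and 97.2 with FG-4592, which overlapped (log2 change -0.07, interval -0.19 to 0.06, FDR = 0.379). With library size alone that change was -0.17 (FDR = 0.0248). The difference between the responses was -0.25 (interval -0.43 to -0.07, FDR = 0.04). It did not pass without FG-4592-treated MSC library 1 (FDR = 0.102) or 3 (0.0666), or without FG-4592-treated osteocyte library 1 (0.0931) or 3 (0.0863), nor with no filter on low counts (-0.23, FDR = 0.0608).

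Nr1d1 (chr11:98767932-98775333, minus strand), the heme-binding nuclear receptor REV-ERBα of the second loop, had the largest difference between cell types among the members. Vehicle MSCs held 29.3, 29.5 and 33.8 CPM and FG-4592-treated MSCs 24.5, 23.9 and 22.4. Vehicle osteocytes held 39.1, 38.7 and 42.9 CPM and FG-4592-treated osteocytes 74.5, 75.1 and 74.3. All 4 conditions were separate, with FG-4592-treated cells at both ends of the order. The log2 change was -0.39 ± 0.067 in MSCs (1.31-fold lower, FDR = 0.000229) and 0.89 ± 0.066 in osteocytes (1.85-fold higher, FDR = 1.46e-08), and the difference was 1.28 (interval 1.08 to 1.48, FDR = 1.02e-07). Nr1d1 shares 263 bases (8.55%) with Thra on the opposite strand. Thra averaged 136 CPM in MSCs with vehicle and 109 with FG-4592, and 106 and 124 in osteocytes.

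Dbp (chr7:45705088-45710203, plus strand), the D-box activator that carries the rhythm to output genes, overlapped between treatments in MSCs, at 14.8, 19.4 and 19.8 CPM with vehicle and 16.7, 17.8 and 14.3 with FG-4592. The MSC log2 change was -0.15 (interval -0.38 to 0.08, FDR = 0.306). Osteocytes measured 31.2, 33.6 and 29.7 CPM with vehicle and 40.1, 45.6 and 45.8 with FG-4592, a rise of 0.48 ± 0.105 on the log2 scale (1.39-fold, FDR = 0.00148). The responses differed by 0.63 (interval 0.31 to 0.95, FDR = 0.00619). Dbp shares 539 bases (18%) with Sphk2 on the opposite strand, which averaged 17.1 and 14.7 CPM in MSCs and 24.4 and 20.9 in osteocytes with vehicle and FG-4592.

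**Figure D2:**
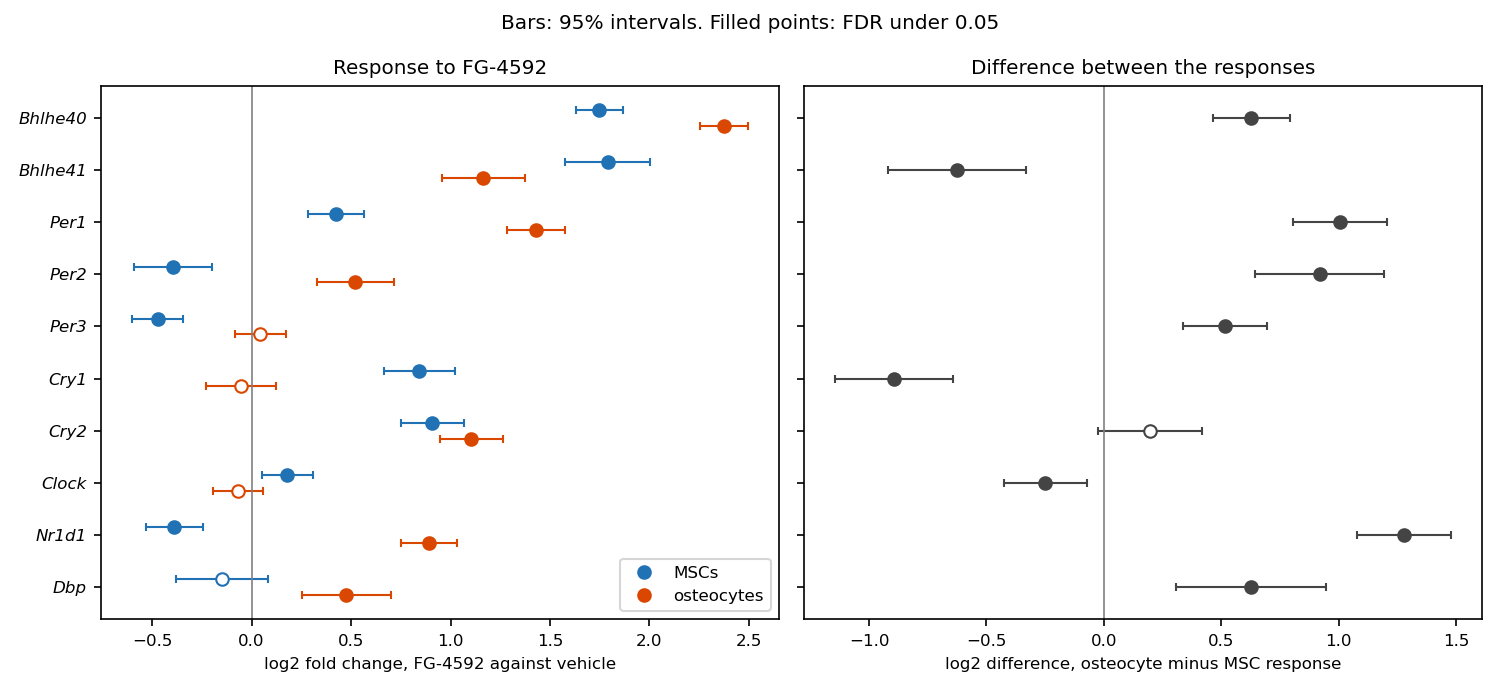
Left, log2 fold change of each clock gene with FG-4592 against vehicle in MSCs and osteocytes. Right, the osteocyte response minus the MSC response. Bars are 95% intervals and filled points have an FDR under 0.05. Per2 and Nr1d1 lie below 0 in MSCs and above 0 in osteocytes, and Cry2 is the gene whose difference (0.20) did not pass.

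The difference between the responses, tested as an interaction contrast, passed for 9 of the 10 members, 6 with the larger value in osteocytes and 3 with the larger value in MSCs. Per1 and Nr1d1 were called. Over all genes tested, 13.3% passed with the larger value in osteocytes, 11% with the larger value in MSCs, and 5.01% were called. The members with larger values in osteocytes were Bhlhe40, all 3 period genes, Nr1d1 and Dbp, and those with larger values in MSCs were Bhlhe41, Cry1 and Clock. The median difference was 0.57 for the members and 0.05 for all genes. Other measures moved with FG-4592 in the same libraries. The 4 proliferation genes summed to 638 to 655 CPM in MSCs with vehicle and 405 to 488 with FG-4592, and to 339.7 to 409 and 107 to 178 in osteocytes. The 3 cartilage markers summed in osteocytes to between 53.6 and 72.8 CPM with vehicle and between 244 and 334 with FG-4592, nearly all of it Col2a1 (52.6 to 72.0 and 243 to 333 CPM), and stood between 2.52 and 4.53 in all MSC libraries. Acan was at most 0.0495 CPM in any library. The 7 culture temperature genes summed to 1257 to 1324 CPM in MSCs with vehicle and 1579 to 1660 with FG-4592. There 3 rose and 2 fell, against 17.6% and 20.4% of all genes. In osteocytes they summed to 881 to 976 and 910 to 1006 CPM, and 4 rose and 2 fell, against 21.9% and 22%. Hsp90aa1 alone averaged 489 CPM in vehicle MSCs and 829 with FG-4592, and the cold-inducible Rbm3 averaged 562 and 542. The list joins cold-inducible and heat shock genes, so that its sum does not measure a response to temperature. Of the 3 adipocyte markers, Adipoq fell in MSCs (-1.44) and Fabp4 rose in osteocytes (1.19, FDR = 6.83e-07), and their other changes did not pass. Des, 1 of 3 skeletal muscle markers, fell in MSCs (-1.499, FDR = 1.37e-06) and rose in osteocytes (0.613, FDR = 0.00384). The responses of Des differed by 2.112 (FDR = 4.42e-06), at between 2.35 and 8.65 CPM in any library. Myog was at 0 in every library, and Myod1 had at most 1 count in any library. The part of these measures in the clock gene responses was not tested. In bulk RNA, a change in the number of cells of a type and a change in RNA per cell cannot be told apart.

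The other genes of the clock were taken from a list of 24, of which 23 passed the filter on low counts and Hlf did not. In MSCs, 9 of the 23 rose, 5 fell and 9 did not pass, against 17.6% of all genes rising and 20.4% falling. In osteocytes, 8 rose, 4 fell and 11 did not pass, against 21.9% and 22%. Their median log2 change was 0.08 in MSCs and 0.09 in osteocytes.

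Among the activators, Arntl, encoding the BMAL1 partner of CLOCK, rose in both cell types. It measured 23.0, 24.2 and 23.7 CPM in MSCs with vehicle and 39.3, 39.5 and 39.2 with FG-4592. In osteocytes it measured 18.9, 18.5 and 23.9 CPM with vehicle and 30.7, 28.7 and 28.4 with FG-4592. Treatments were separate in both, and the log2 change was 0.74 ± 0.084 in MSCs (FDR = 2.99e-06) and 0.52 ± 0.084 in osteocytes (FDR = 0.0001). Npas2, a bHLH-PAS protein that can stand in for CLOCK, was called higher in both (2.20 ± 0.367 and 2.92 ± 0.358) but was scarce. Its counts ran from 8 to 127, and its highest level was 2.10 CPM, in FG-4592-treated osteocytes.

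In the second loop, Rora, which activates Arntl where REV-ERBs repress it, was called higher in both cell types. It measured 43.3, 40.8 and 44.5 CPM in MSCs with vehicle and 151, 148 and 148 with FG-4592, and 53.2, 51.9 and 47.9 against 156, 177 and 173 in osteocytes. The log2 changes were 1.80 ± 0.058 (FDR = 7.11e-13) and 1.73 ± 0.058 (FDR = 7.73e-13), and their difference was -0.07 (interval -0.24 to 0.10, FDR = 0.566). Nr1d2, encoding REV-ERBβ, the sister of Nr1d1, fell in MSCs from 91.6, 93.5 and 91.9 CPM to 74.8, 72.0 and 74.9 (-0.32 ± 0.056, FDR = 0.000259). In osteocytes Nr1d2 changed by -0.03 (interval -0.15 to 0.09, FDR = 0.693), and the responses differed by 0.29 (FDR = 0.014), a smaller difference than the 1.28 of Nr1d1. Nfil3, a D-box repressor that opposes DBP, was called higher in osteocytes (1.41 ± 0.097, FDR = 5.85e-09), where it went from 10.1, 12.0 and 13.5 CPM to 32.0, 29.9 and 32.6. It rose by 0.82 ± 0.097 in MSCs (FDR = 4.19e-06).

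Among further repressors and outputs, Ciart, also called Chrono, had the largest change of any clock gene named here in MSCs. It measured 0.945, 1.45 and 1.45 CPM with vehicle and 19.3, 20.1 and 20.3 with FG-4592 in MSCs, and 1.42, 1.64 and 2.20 against 10.3, 11.0 and 10.8 in osteocytes. On the log2 scale Ciart rose by 3.95 ± 0.164 (FDR = 1.57e-11) and 2.61 ± 0.157 (FDR = 1.17e-09), larger in MSCs by 1.34 (difference -1.34, interval -1.81 to -0.86, FDR = 0.000385). Noct, encoding nocturnin, an NADP(H) phosphatase, was called higher in MSCs (1.93 ± 0.140, FDR = 1.59e-08), and Timeless, which also serves DNA replication, was called lower there (-1.06 ± 0.162, FDR = 6.77e-05). In osteocytes these changed by 0.96 and -0.76 (FDR = 2.03e-05 and 0.00107). None of the 8 modifiers of clock proteins was called (9.29% of all genes in MSCs and 10.5% in osteocytes). In MSCs 2 of the 8 rose and 2 fell, against 17.6% and 20.4% of all genes, and in osteocytes 2 rose and 1 fell, against 21.9% and 22%, shares near those of all genes. The largest change among those with an FDR under 0.05 was -0.88 for Fbxl21 in MSCs, at between 1.06 and 2.62 CPM. Of the 4 bHLH-PAS proteins of the HIF pathway, the relatives of CLOCK, Hif1a and Arnt fell in MSCs (-0.24 and -0.23, FDR = 0.00144 and 0.00349). In osteocytes Hif1a and Arnt2 fell (-0.49 and -1.71, FDR = 8.43e-07 and 2.96e-05) and Epas1 rose (0.21, FDR = 0.00471).

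**Figure D3:**
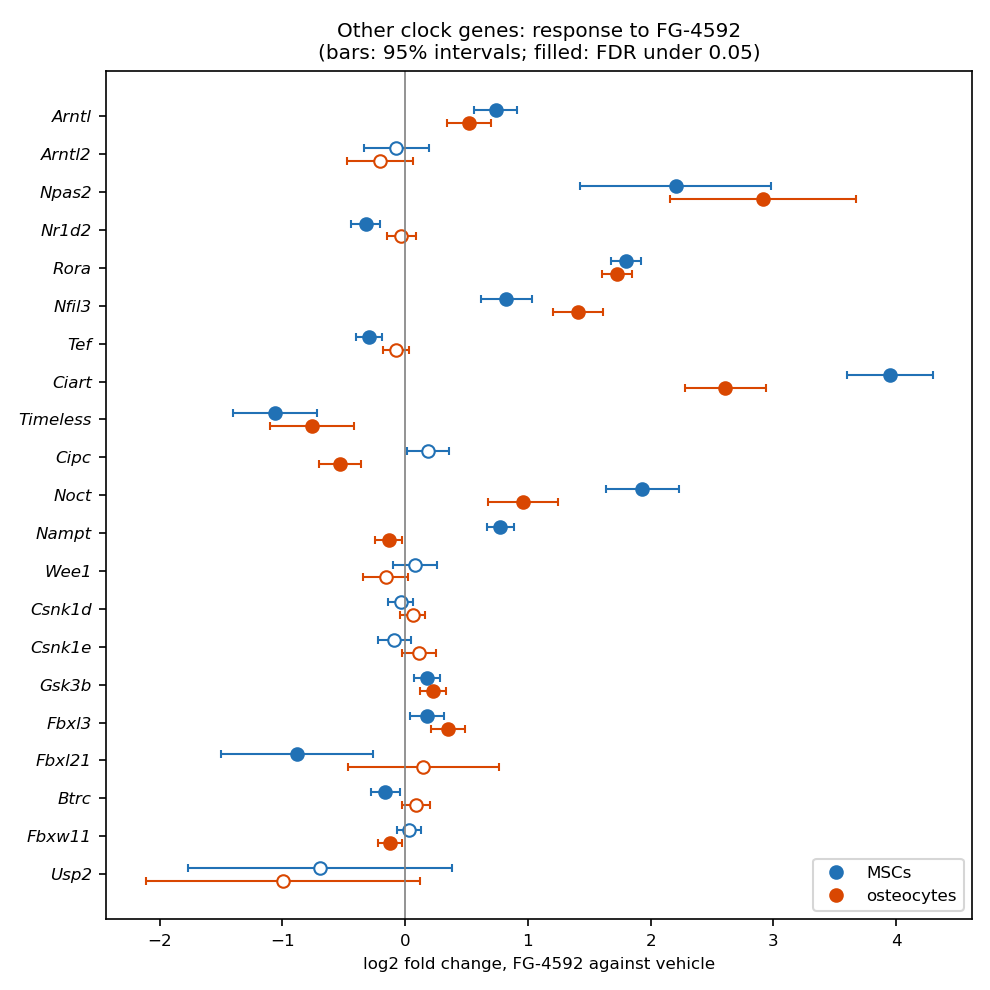
Log2 fold change with FG-4592 against vehicle for 21 of the other clock genes in MSCs and osteocytes, with 95% intervals. Filled points have an FDR under 0.05. Ciart, Npas2 and Rora lie above 1.5 in both cell types, and the modifiers of clock proteins from Csnk1d downward lie near 0 or have wide intervals.

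The second question was how osteocytes differed from MSCs. With vehicle, 6 members were higher in osteocytes, 1 was lower and 3 did not pass, and none was called. Over all genes tested, 26% were higher, 24.9% lower and 15.9% called. With FG-4592, 8 were higher, 1 was lower and 1 did not pass, and Per2, Nr1d1 and Dbp were called. Over all genes, 30.5% were higher, 25.3% lower and 18.3% called with FG-4592. The median log2 difference of the members was 0.27 with vehicle and 0.47 with FG-4592, and that of all genes -0.01 and 0.03. These comparisons share their libraries with the responses above, so that they restate the same 12 values per gene from the other side.

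In vehicle, the largest differences among the members were those of Bhlhe41 (0.91 ± 0.100, FDR = 1.34e-06) and Dbp (0.81 ± 0.107, FDR = 1.06e-05). Bhlhe41 passed the limit for a call without vehicle MSC library 2, its highest MSC vehicle library, when the difference was 1.11. Clock was higher by 0.50 ± 0.059 (FDR = 3.23e-06), Nr1d1 by 0.38 ± 0.067 (FDR = 0.000155) and Cry1 by 0.30 ± 0.084 (FDR = 0.00692), each with no overlap between the cell types. Per1 was the member that was lower in osteocytes (-0.45 ± 0.068, FDR = 3.56e-05). Per2 was higher by 0.24 ± 0.091 (FDR = 0.0403), with overlapping libraries. It did not pass without vehicle MSC library 1 (FDR = 0.108) or 2 (0.0643), vehicle osteocyte library 1 (0.0582) or 2 (0.103), or FG-4592-treated osteocyte library 1 (0.0523), nor under 5 other settings given in the closing part. Bhlhe40 (-0.03, interval -0.15 to 0.09), Cry2 (-0.03, interval -0.19 to 0.13) and Per3 (-0.13, interval -0.26 to -0.0037, FDR = 0.0804) did not pass. With library size alone Per3 was lower by 0.17 (log2 difference -0.17, FDR = 0.0356). The sign of Bhlhe40 and Cry2 turned when single libraries were left out (Cry2 0.05 without vehicle osteocyte library 1).

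With FG-4592, Nr1d1 was higher in osteocytes by 1.66 ± 0.068 (3.16-fold, FDR = 4.63e-12), Dbp by 1.43 ± 0.108 (FDR = 1.1e-08) and Per2 by 1.16 ± 0.092 (2.23-fold, FDR = 2.08e-08). Bhlhe40 (0.60), Per1 (0.55), Per3 (0.39) and Clock (0.25) were higher by less, with FDR between 1.03e-07 and 0.00209. Cry1 was lower (-0.59 ± 0.083, FDR = 1.28e-05). Bhlhe41 was higher by 0.28 ± 0.095 (FDR = 0.0194), and did not pass without FG-4592-treated MSC library 2 (0.28, FDR = 0.0506) or 3 (0.25, FDR = 0.0688) or FG-4592-treated osteocyte library 3 (0.23, FDR = 0.0841). Cry2 did not pass (0.16, interval 0.01 to 0.32, FDR = 0.0658), but did in a fit of the 6 libraries compared (0.15, FDR = 0.0394). Between the treatments, Per1 and Cry1 changed sides: Per1 was the lower in vehicle-treated and the higher in FG-4592-treated osteocytes, and Cry1 the reverse.

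**Figure D4:**
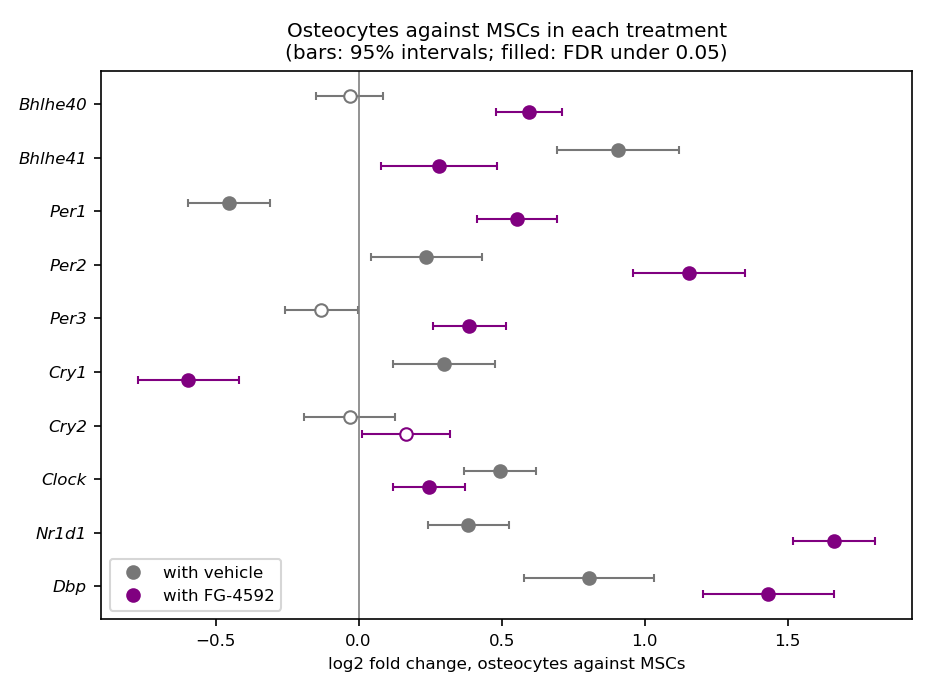
Log2 fold change of osteocytes against MSCs for each clock gene, with vehicle and with FG-4592. Bars are 95% intervals and filled points have an FDR under 0.05. Per1 (-0.45 and 0.55) and Cry1 (0.30 and -0.59) lie on opposite sides of 0 in the 2 treatments, and Nr1d1 with FG-4592 (1.66) lies farthest to the right.

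Several other measures stood apart between the cell types in the same libraries. The 3 adipocyte markers, Adipoq, Plin1 and Fabp4, summed to between 6.36 and 12.4 CPM in the MSC libraries and between 1532 and 2133 in the osteocyte libraries. The 7 genes listed as answering to culture temperature summed to 1257 to 1324 CPM in vehicle MSCs and 881 to 976 in vehicle osteocytes. In osteocytes 1 of the 7 was higher, 4 were lower and 2 did not pass, against 26% of all genes higher and 24.9% lower. The cold-inducible Cirbp and Rbm3 were each lower by 1.37 (log2 difference -1.37), the heat shock genes Hspa1a and Hspa1b were also lower (FDR = 0.0011 and 4.01e-11), and Hsph1 was higher by 1.87 (FDR = 9.06e-12). Epas1, encoding the bHLH-PAS protein HIF-2α, was higher in vehicle osteocytes by 3.24 (FDR = 4.93e-16), at 73.4 to 75.5 CPM in MSCs against 656 to 737. The proliferation genes were lower in vehicle osteocytes, as given above. The part of these measures in the differences between cell types was not tested. Among the other clock genes, 8 of 23 were higher in osteocytes with vehicle and 3 lower (26% and 24.9% of all genes), and Nr1d2 was higher by 0.46 ± 0.056 (FDR = 4.29e-06). With FG-4592, 8 were higher and 7 lower (30.5% and 25.3% of all genes), and Arntl was lower by 0.43 (log2 difference -0.43 ± 0.083, FDR = 0.000358).

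The order of the members by level was read per kilobase of exonic length. Bhlhe40 was the highest in each condition, at 18.1 ± 0.94 (SD, n = 3) FPKM in MSCs with vehicle and 60.8 ± 2.12 with FG-4592, and at 17.7 ± 0.928 and 91.9 ± 3.89 in osteocytes. Nr1d1 was next in 3 of the conditions (10.0 FPKM in vehicle MSCs, and 13.1 and 24.3 in osteocytes with vehicle and with FG-4592). In FG-4592-treated MSCs Bhlhe41 took that place at 9.82 FPKM and Nr1d1 stood at 7.67. Bhlhe41 had the lowest mean of the 10 in vehicle MSCs, at 2.84 ± 0.555 FPKM. Per2 was next at 3.21 ± 0.294, a gap smaller than the SD of Bhlhe41. Per2 was the lowest in FG-4592-treated MSCs (2.44), Per1 in vehicle osteocytes (3.75) and Cry1 in FG-4592-treated osteocytes (4.52). Per1 and Per2 (3.79) in vehicle osteocytes differed by less than their SD of 0.248 and 0.374. Per CPM, without division by length, Clock with its 13727 exonic bases stood first in vehicle osteocytes, and on the FPKM scale it was the fourth.

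For each member, the 3 genes with the most similar pattern were found by Pearson's r of log2 CPM over the 12 libraries. These points share 4 conditions and 1 normalization, so that r mostly describes how the 4 means line up. Bhlhe40 lay closest to Asph, P4ha1 and Slc1a4 (r = 0.998 to 0.997), and Bhlhe41 to Hk2 (0.989), Slc16a1 and Uaca (0.987 each). Per1 lay closest to Impa2 (0.99), Per2 to Mttp (0.974) and Per3 to Alpk1 (0.96). Cry1 lay closest to Nadk (0.944) and Cry2 to Ankrd37 (0.992). Clock was closest to Snx10 (0.977), Nr1d1 to Ppp1r3c (0.991) and Dbp to Zfr2 (0.991). P4ha1 (a collagen prolyl hydroxylase subunit) had log2 changes with FG-4592 of 1.86 in MSCs and 2.43 in osteocytes, near the 1.75 and 2.37 of Bhlhe40. Hk2 (hexokinase) had 3.45 and 1.77, larger in MSCs as for Bhlhe41. Ppp1r3c (a glycogen-targeting phosphatase subunit) had -0.57 and 1.45, of opposite sign as for Nr1d1. The genes were picked for their pattern over these same libraries, so that like directions were built in. Sizes could differ, as r does not compare them. Asph, the closest to Bhlhe40, had 0.80 and 1.13. Ankrd37, the closest to Cry2, had 5.79 and 7.26, against 0.91 and 1.10 for Cry2. The names depended on the measure: of the 30 genes, 2 were also found with Spearman's rho.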

How the data were processed

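Each of the 12 RNAseq libraries was put in its condition from its labels (cell type and treatment). The authors aligned read pairs (100 bases an end) with STAR 2.7.2a to mm10. They counted pairs on Gencode M22 genes in featureCounts (Subread 1.6.2) with a minimum mapping quality of 10, for every gene that a pair overlapped and with no strand setting named. The authors deposited raw counts, and all 12 columns were used. The edgeR version stated for the study differs between its sources.

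The fit used R 4.3.3 and the quasi-likelihood test of edgeR 4.0.16, with 1 coefficient per condition and TMM factors, on the 16484 of 56350 genes that had over 10 counts in 3 or more libraries. Intervals are at 95%. A count of 0 allows up to 3 counts, 0.0447 to 0.0545 CPM, and covers counting error only. Likeness used a prior count of 2. FPKM divided CPM by the deposited exonic length, the union over isoforms. Promoters came from RefSeq (GRCm38.p6). Alternatives were the likelihood ratio test, DESeq2 1.42.0, other factors and filters, the 6 libraries compared, a replicate term, and each library left out. The named genes were the members, the called genes of hand-written lists, Arntl, Nr1d2 and, for likeness, the 3 closest genes. Genes named outside this rule (Hif1a, Epas1, Arnt, Egln3, Car9, Cirbp, Rbm3, Hspa1a, Hspa1b, Hsp90aa1, Hsph1, marker genes and Fbxl21, and the clock genes whose responses differed) were chosen after their values were seen. The members and lists were chosen with earlier results of these data known. Figures were drawn in Python 3.11.15.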

Additional observations from a re-analysis of the deposited data

Results flagged for a closer look

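A difference between the FG-4592 responses of osteocytes and MSCs, tested as an interaction in edgeR, passed an FDR of 0.05 for 9 of the 10 members. On the log2 scale (osteocytes minus MSCs) it was 0.63 for Bhlhe40, -0.62 for Bhlhe41, 1.01 for Per1, 0.92 for Per2, 0.52 for Per3, -0.89 for Cry1, -0.25 for Clock, 1.28 for Nr1d1 and 0.63 for Dbp. Among the other clock genes it passed for 8 of 23, 4 with the larger value in osteocytes and 4 with the larger value in MSCs, against 13.3% and 11% of all genes tested. The difference was 0.29 for Nr1d2, 0.58 for Nfil3, 0.22 for Tef and 0.25 for Btrc, and -1.34 for Ciart, -0.97 for Noct, -0.91 for Nampt and -0.72 for Cipc. Nampt, the NAD salvage enzyme, rose in MSCs (0.78, FDR = 6.13e-09) from between 145 and 148 CPM to between 245 and 259.7, and fell by 0.14 in osteocytes (FDR = 0.0449). Cipc, which inhibits CLOCK, fell in osteocytes (-0.53, FDR = 4.2e-05), and its MSC change was 0.19 (FDR = 0.0787).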

How the results depend on the processing

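Of 1040 recomputed values of the members, 1005 kept their sign and their side of the threshold, 22 lost the FDR of 0.05, 4 gained it and 9 changed sign, all 9 for values that had not passed. The count of members called in the difference between the responses was 2, and 1 with DESeq2, RLE factors, upper-quartile factors or library size alone, and 1 to 2 with single libraries left out. With vehicle, 0 members were called, and 0 to 1 with single libraries left out. Signs turned for Per3 in osteocytes with library size alone (-0.055). With single libraries left out, the range was -0.028 to 0.064 for Per3 and -0.13 to 0.0042 for Cry1 in osteocytes, and with vehicle it was -0.033 to 0.049 for Bhlhe40 and -0.062 to 0.069 for Cry2. Causes were not tested. Per2 with vehicle (FDR 0.00557 to 0.108 over all settings) did not pass with upper-quartile factors, library size alone, no filter or the 6 libraries alone. Replicate numbers did not pair the samples (correlations of deviations -0.135 to 0.0543). With the replicate number as a block, 2 of 50 member values changed side: Per2 with vehicle (0.23, FDR = 0.0561) and Cry2 between FG-4592-treated cells (0.16, FDR = 0.0177). Over all settings, 1394 to 1778 genes were called in MSCs and 1570 to 1954 in osteocytes. Scaling moved the median of all genes by at most 0.0976 in size (library size alone, osteocytes, -0.0976). Each member had at least 718 counts in every library.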
